A study of Mus musculus with 15 samples.

Results

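The microRNAs mmu-miR-598-3p and mmu-miR-551b-3p were followed in mouse epiblast stem cells (EpiSC) during 14 days of differentiation. They are 2 of the 1122 mouse miRNAs on the array, and both passed the filter on dim signal that left 306 miRNAs for testing. They were chosen from these same data because their signal was low or absent until day 9 and up by day 14 with and without morphogens. Their levels by day are therefore a description, and tests are given only for treated against control cells.

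The EpiSC came from Pitx3-GFP mice, in which a fluorescent protein reports Pitx3, a transcription factor gene of midbrain dopaminergic neurons. Day 5 cells had not yet received morphogens. Treated cells, collected at day 9 and day 14, received SHH and FGF8 from day 5, secreted factors that pattern the ventral midbrain. Control cells of the same days grew without either factor. Each of these 5 groups had 3 single-colour Agilent arrays of total RNA, and nothing in the labels says whether replicates were separate cultures, so p-values measure only the spread between these samples.

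MicroRNAs are short RNAs that guide Argonaute proteins to messenger RNAs, mostly by pairing of the seed at their 5′ end, and lower the output of those messages. One hairpin can give a 3p and a 5p product, and usually 1 of them accumulates. In the RefSeq annotation Mir598 lies within the span of Xkr6, a gene of the XK-related membrane protein family, and Mir551b within that of Egfem1. Many miRNAs of the developing nervous system, such as miR-124, miR-9 and miR-137, increase as progenitors become neurons.

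RefSeq sequences were found for 7 of the 10 miRNAs looked up, on build GRCm38.p6 of the mouse genome. Both products of Mir551b are shown because only the 3p product gave signal, with the seed (bases 2 to 8) in capitals.
miR-551b-3p: gCGACCCAuacuugguuucag
miR-551b-5p: gAAAUCAAgcuugggugagaccu
The 3p product lies at chr3:29416879-29416899 and the 5p product at chr3:29416840-29416862, both on the plus strand. Among the mature miRNAs that RefSeq lists, 0 other sequences carry the seed of miR-551b-3p. The 5p products of both hairpins, miR-598-5p and miR-551b-5p, were above background on 0 of 15 arrays with each of their 2 probes.

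The 15 arrays had a 75th percentile of signal between 149 and 337 intensity units and 238 to 333 miRNAs above background each. They held 0 saturated spots, and replicates correlated at 0.980 to 0.998 across the 306 miRNAs, which are not independent. The arrays lie on 2 slides: slide 1 holds day 5, treated day 9 and treated day 14 replicates 1 and 2, and slide 2 holds treated day 14 replicate 3 and all 6 control arrays. Levels below are the signal of a miRNA's brightest probe as a percentage of the 75th percentile of its array, which was taken over 353 probes above background on every array. A probe counted as above background where at least 50% of its spots (20 per probe, less outliers) carried the scanner software's flag.

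By its brighter probe, miR-598-3p was first above background in control cells at day 9 and was above background on all 6 arrays of day 14. At day 5 it read 3.92%, 3.79% and 3.09% on the 3 arrays. At day 9 it read 4.29%, 4.62% and 4.38% in treated cells and 6.02%, 6.10% and 6.12% in control cells. Of these arrays only the 3 of control day 9 were above background by this probe, with 36 of 57 spots flagged, against 7 of 56 in treated day 9 and 6 of 59 at day 5. At day 14 it read 14.2%, 16.0% and 13.4% in treated cells and 19.3%, 25.2% and 22.5% in control cells. All 59 of 59 spots were flagged in each day 14 group. Every control array lay above every treated array at day 14, as for 14.7% of all 306 miRNAs tested. The order of the measured groups was thus control day 9, treated day 14 and control day 14, and no neighbours in it overlapped. Day 5 and treated day 9, both below background, have no order. The dimmer probe was above background on 1 of 3 control day 9 arrays, with 20 of 55 spots flagged, and on all 6 day 14 arrays.

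Between days, the level of miR-598-3p in treated cells was at least 2.48-fold higher at day 14 than at day 9 and at least 2.18-fold higher than at day 5. The bound is set by the dimmest probe that counted as above background on each day 9 or day 5 array. In control cells, where both days were measured, the level at day 14 was 3.65-fold that at day 9, and at least 3.34-fold that of day 5. Of all miRNAs, 35.3% were called higher at day 14 than at day 9 in treated cells and 31.4% in control cells. Control day 9 and control day 14 lie on 1 slide, and within slide 1 treated replicates 1 and 2 at day 14 stood 1.54 log2 units above treated day 9 at the floor (-4.27 log2 units, to which all dimmer values were raised).

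miR-551b-3p was above background only on the 6 arrays of day 14. At day 5 it read 0.518%, 0.592% and 0.851%. At day 9 it read 1.86%, 2.19% and 3.48% in treated cells and 4.52%, 4.61% and 4.58% in control cells, with 0 of 57 spots flagged in treated cells and 11 of 60 in control cells. Signal was present at day 14 in both arms, at 12.07%, 12.14% and 11.95% in treated cells and 9.66%, 10.4% and 9.81% in control cells. Every spot used was flagged there, 57 of 57 in treated and 60 of 60 in control cells. The 3 treated arrays lay above the 3 control arrays, as they did for 41.2% of all 306 miRNAs tested. The scanner software's own call per miRNA, a different criterion, placed it as detected on all 3 control day 9 arrays and on none of treated day 9 or day 5. By that call miR-598-3p was detected earlier, on 1 of 3 day 5 arrays and on all 3 arrays of both day 9 groups, 13 of 15 arrays in all.

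In treated cells the level of miR-551b-3p was at least 2.07-fold higher at day 14 than at day 9 and at least 1.81-fold higher than at day 5. In control cells it was at least 1.81-fold higher at day 14 than at day 9 and at least 1.49-fold higher than at day 5. Within slide 1 the treated day 14 arrays stood 1.22 log2 units above treated day 9 at the floor. These folds are lower bounds, so the 2 miRNAs cannot be ordered by them.

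**Figure D1:**
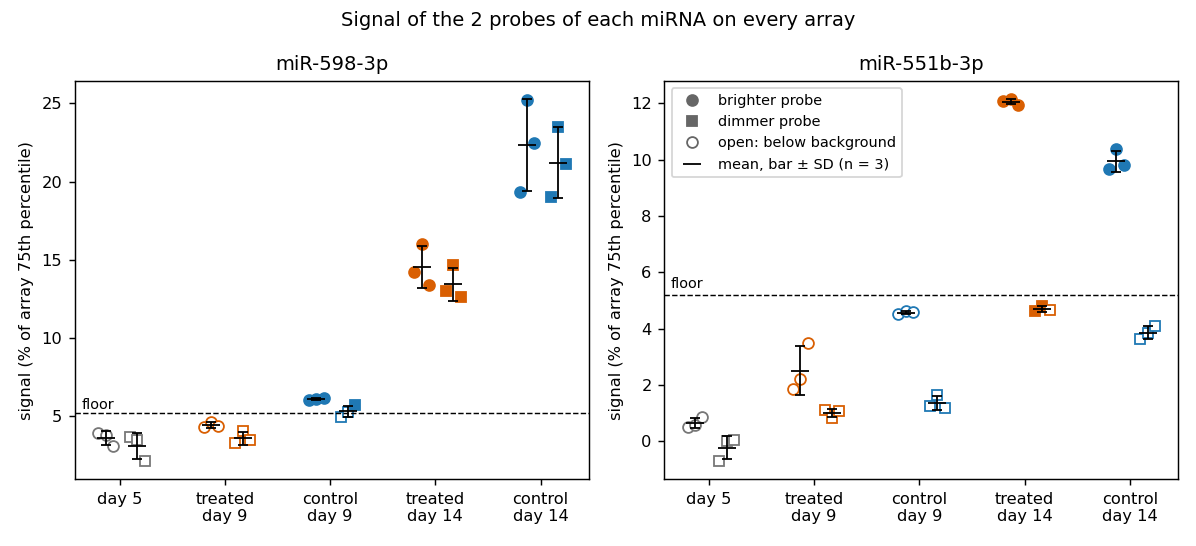
Signal of miR-598-3p (left) and miR-551b-3p (right) on every array, as a percentage of the array's 75th percentile, for the brighter probe (circles) and the dimmer probe (squares) in 5 groups of 3 arrays. Open symbols are below background, bars are the mean ± SD, and the dashed line is the floor. For the brighter probe of miR-598-3p, treated day 14 arrays read 13.4% to 16.0%, below the control arrays at 19.3% to 25.2%, while for miR-551b-3p treated arrays read 11.95% to 12.14%, above the control arrays at 9.66% to 10.4% under this scaling.

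The comparison of treated with control cells at day 14 asks whether exposure to SHH and FGF8 went with another level of each miRNA once it was measurable. miR-598-3p was lower in treated cells. It averaged 14.5% ± 1.35 in treated cells and 22.3% ± 2.95 in control cells (SD, n = 3 each), which on the log2 scale is -2.79 ± 0.13 and -2.17 ± 0.19. The difference was -0.61 log2 units (SE 0.09, limma adjusted p = 7.7e-05, 95% interval -0.81 to -0.42), or 1.53-fold lower in treated cells. Of all 306 miRNAs, 53.3% were called in this comparison, 38.9% higher and 14.4% lower in treated cells. The median of all miRNAs was 0.21 log2 units, so miR-598-3p stood 0.83 below it, the 12th lowest difference. The arrays of the 2 groups did not overlap, which was so for 14.7% of all miRNAs with treated cells lower and for 41.2% with treated cells higher. Higher calls were 73.0% of all calls here but 32.5% with the 75th percentile over all probes, which moved the median of all miRNAs to -0.076 and the difference of miR-598-3p to -0.99.

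Its second probe gave the same order: 13.4% ± 1.06 in treated and 21.2% ± 2.26 in control cells at day 14, a difference of -0.66 log2 units without overlap. Before scaling, the brightest probe read 36.8 to 48.8 intensity units on treated day 14 arrays and 54.1 to 60.3 on control day 14 arrays. Within slide 2, where treated replicate 3 can be set against the 3 control arrays, the difference was -0.73. Groups at the floor have an SD of 0, which narrows the shared spread of the fit: with only the 6 day 14 arrays the SE was 0.12 and the adjusted p 0.0037 over 284 miRNAs. The call was lost with a floor 4 times higher (-0.13, adjusted p = 0.079) and with the scanner software's total signal per miRNA (-0.87, adjusted p = 0.067).

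miR-551b-3p was slightly higher in treated than in control cells at day 14 under the main scaling, but this direction depended on the scaling. It averaged 12.1% ± 0.0948 in treated and 9.94% ± 0.369 in control cells (SD, n = 3 each), or -3.05 ± 0.011 and -3.33 ± 0.053 on the log2 scale. The difference was 0.28 log2 units (SE 0.05, limma adjusted p = 0.00047, 95% interval 0.17 to 0.39), a 1.21-fold higher level, only 0.06 above the median of all miRNAs. With only the day 14 arrays the SE was 0.08 and the adjusted p 0.016, and within slide 2 the difference was 0.27. Scaling to the 75th percentile of all probes gave -0.095, quantile normalization -0.12, normexp background correction -0.014 and scaling to the median 0.074, none of them called. A floor 4 times lower, under which the day 9 arrays are no longer flattened, kept the difference and raised the adjusted p to 0.16. The second probe of miR-551b-3p lay under the floor on every array. It read 4.70% ± 0.10 in treated and 3.85% ± 0.229 in control cells at day 14, and was above background on 2 of 3 treated and 0 of 3 control arrays.

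**Figure D2:**
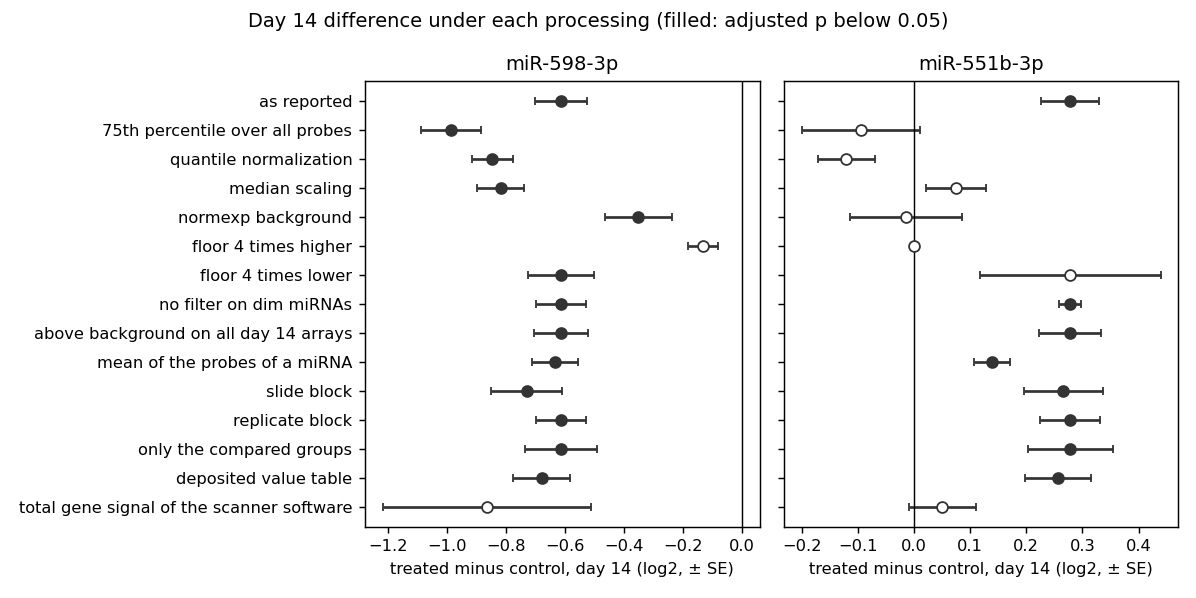
Treated minus control difference at day 14 (log2 units, bars ± SE) of miR-598-3p (left) and miR-551b-3p (right) under each processing, filled where the adjusted p is below 0.05. miR-598-3p is lower in treated cells in every row, between -0.99 and -0.13, while miR-551b-3p lies at 0.28 as reported and at -0.12 with quantile normalization.

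The log2 difference between the signals of the 2 miRNAs on an array does not move with any scaling constant of that array. Being 2 different probes, its size has no meaning as a ratio of amounts, but its change between groups shows unequal change. miR-551b-3p minus miR-598-3p was -0.24, -0.40 and -0.16 on the treated day 14 arrays and -0.999, -1.28 and -1.20 on the control day 14 arrays, which did not overlap. The means were -0.27 ± 0.12 in treated and -1.16 ± 0.15 in control cells (SD, n = 3 each), 0.89 apart. An exact two-sided permutation test gave p = 0.1, the smallest that the 20 arrangements of 3 against 3 arrays allow. This contrast was chosen after both differences were known.

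At day 9 the data bear on miR-598-3p alone. Its difference was -0.23 log2 units between treated and control cells (SE 0.09, limma adjusted p = 0.042), where 55.6% of all miRNAs were called, with 15% called lower in treated cells, and the median of all was 0.25. Higher calls were 72.9% of these calls, and 25.3% with the 75th percentile over all probes. Since treated cells were below background, this is at least 1.04-fold lower in treated cells. The difference was -0.58 with the 75th percentile over all probes, -0.46 with quantile normalization, -0.44 with median scaling, -0.46 with a floor 4 times lower and -1.09 with the software's total signal. The call was lost whichever day 9 array was left out, at adjusted p from 0.075 to 0.093. All treated day 9 arrays lie on slide 1 and all control day 9 arrays on slide 2, so slide and treatment cannot be told apart at that day. For miR-551b-3p both day 9 groups were below background and no fold is given. The change in the treated minus control difference between day 9 and day 14 was called for 32.7% of all miRNAs, with limma adjusted p = 0.031 for miR-598-3p. Neither the size nor the direction of this change is settled for miR-598-3p, since treated day 9 cells were below background. It was -0.16 log2 units with a floor 4 times lower and 0.22 with the software's total signal. For miR-551b-3p that test is void, because both day 9 groups sit at the floor and it only restates the day 14 difference.

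The same detection pattern was looked for among all 1122 mouse miRNAs. Of the 246 above background on all 6 day 14 arrays, 20 were above it on none of day 5. The pattern of miR-551b-3p, with none of the day 5 and day 9 arrays above background, was shared by miR-129-5p, miR-138-5p, miR-1839-5p, miR-326-3p and miR-770-3p, 6 miRNAs in all. The pattern of miR-598-3p, with all 3 control day 9 arrays above background as well, was shared by miR-129-1-3p, 2 miRNAs in all. Mature sequences of those in the RefSeq table are shown to compare their seeds, in capitals, with that of miR-551b-3p above.
miR-129-5p: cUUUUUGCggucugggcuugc
miR-138-5p: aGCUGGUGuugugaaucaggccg
miR-1839-5p: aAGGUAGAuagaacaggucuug
miR-326-3p: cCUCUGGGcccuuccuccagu
miR-770-3p: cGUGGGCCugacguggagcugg
The 6 matched miRNAs of the 8 have 6 distinct seeds. They come from separate places: miR-129-5p from chr2:94241419-94241439 (minus strand) and chr6:29022624-29022644 (plus), miR-138-5p from chr8:94324312-94324334 and chr9:122682898-122682920 (both plus). On the plus strand also lie miR-1839-5p at chr7:81529919-81529940, miR-326-3p at chr7:99552328-99552348 and miR-770-3p at chr12:109563744-109563765.

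Among these 8 miRNAs, 5 were called lower in treated than in control cells at day 14, 1 higher and 2 neither. Without miR-598-3p and miR-551b-3p, 4 of 6 were lower. The 14.4% of all miRNAs called lower is not a like background for these 6. Each had an SD of 0 in treated day 9 cells, and groups at the floor narrow the SE. The pattern of miR-129-1-3p also asked for signal in control but not in treated cells at day 9. miR-138-5p and the products of the Mir129 genes appear again in the neuronal list below, so the counts overlap. The largest differences were those of the products of the Mir129 genes, -1.78 log2 units for miR-129-1-3p (SE 0.09) and -1.52 for miR-129-5p (SE 0.09). miR-138-5p, a miRNA enriched in brain and known to restrain dendritic spine growth in rat neurons, differed by -0.94 and miR-326-3p by -0.70. miR-770-3p at -0.22 (adjusted p = 0.11) and miR-1839-5p at -0.08 (adjusted p = 0.36) were not called. miR-551b-3p had the highest difference of the 8 in each of 7 processings, the main one included, also where its own value fell below 0. miR-598-3p was 4th or 5th. Another percentile, median scaling or a lower floor moves the differences of miRNAs above the floor alike, so those settings could hardly alter this order.

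**Figure D3:**
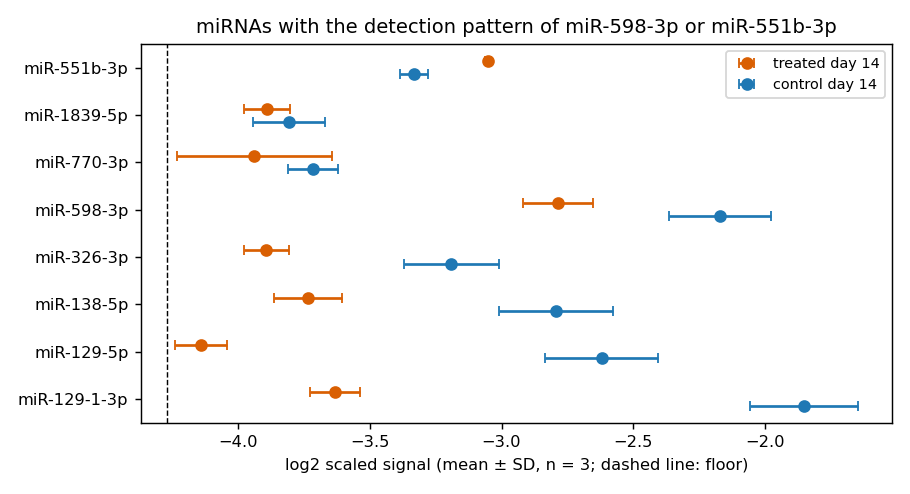
Mean log2 scaled signal (± SD, n = 3) at day 14 in treated (orange) and control (blue) cells of the 8 miRNAs with the detection pattern of miR-598-3p or miR-551b-3p. Only the gap within a line can be read, since signals of different probes are not comparable. miR-551b-3p is the only line with treated cells to the right, by 0.28 log2 units under this scaling (-0.12 with quantile normalization), and miR-129-1-3p has the widest gap at -1.78.

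Likeness over all 15 arrays was measured by Pearson's r of the scaled log2 signal, a description in which the arrays share their scaling and dim values share the floor. miR-598-3p was most like miR-3102-5p.2-5p (r = 0.975), miR-1839-5p (0.974), miR-7b-5p (0.968), miR-137-3p (0.962) and miR-5099 (0.954). miR-551b-3p was most like miR-3099-3p (r = 0.951), miR-7b-5p (0.949), miR-5112 (0.946), miR-3067-3p (0.938) and miR-1897-5p (0.935). The 2 correlated with each other at 0.918, which made miR-551b-3p the 16th for miR-598-3p and miR-598-3p the 9th for miR-551b-3p. Of the 5 nearest to miR-598-3p, miR-3102-5p.2-5p (-0.36), miR-137-3p (-0.47) and miR-5099 (-0.58) were called lower in treated cells at day 14. None of the 5 nearest to miR-551b-3p was called there, with differences between -0.15 and 0.06. Of all 306 miRNAs, 14.4% were called lower there and 53.3% in either direction. The r values include the day 14 arrays, so the calls of these neighbours are not independent of their likeness.

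A list of 19 neuronal miRNAs was set beside the pair, of which 18 were tested. It was chosen with earlier results of these data known, and some members are products of the same gene, so they are not independent. At day 14, 12 of the 18 were called lower in treated than in control cells, 2 higher and 4 neither. Of all 306 miRNAs, 14.4% were called lower and 38.9% higher. The median of the 18 was -0.44 log2 units against 0.21 for all miRNAs. In 6 other processings 9 to 14 of the 18 were lower. miR-129-1-3p and miR-129-5p led the list, followed by miR-9-3p (-1.05) and miR-124-3p (-1.04), long-known miRNAs of neuronal differentiation. The 2 higher ones were miR-218-5p (1.27), a regulator of motor neurons, and miR-212-3p (1.23), which neuronal activity induces. At -0.61, miR-598-3p lay on the side of the 12 lower members, while miR-551b-3p at 0.28 lay near the median of all miRNAs. Between day 9 and day 14, 10 of the 18 were called higher at day 14 in both arms, as were 79 of all 306 miRNAs, and the median day 14 minus day 9 difference was 0.39 log2 units in treated and 1.13 in control cells.

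**Figure D4:**
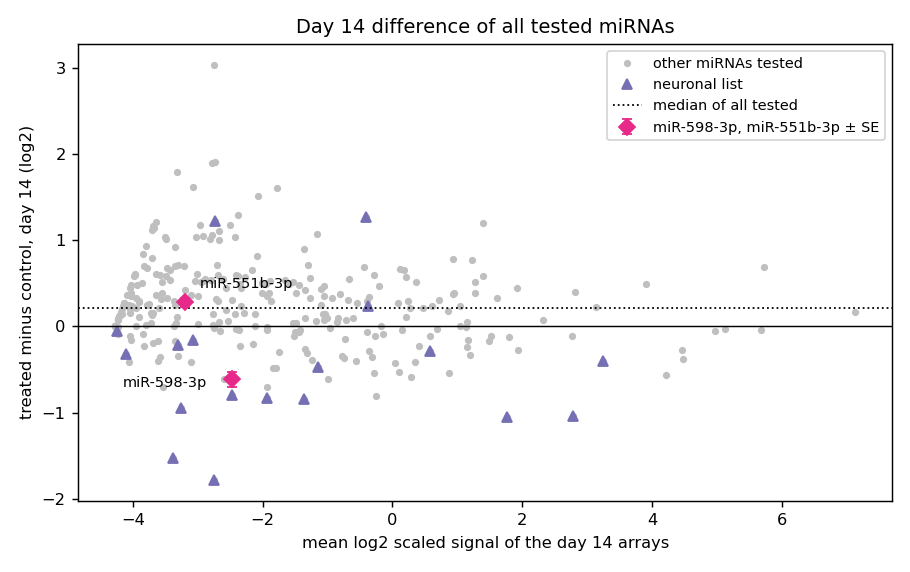
Treated minus control difference at day 14 (log2 units) of all 306 tested miRNAs against their mean log2 scaled signal on the 6 day 14 arrays. Triangles are the neuronal list, diamonds miR-598-3p and miR-551b-3p (± SE), and the dotted line is the median of all at 0.21. miR-598-3p at -0.61 lies among the lower triangles and miR-551b-3p at 0.28 beside the dotted line (-0.12 with quantile normalization).

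Markers of cell types moved between the same groups, and in such bulk RNA fewer cells of a type and less RNA per cell cannot be told apart. All 7 neuron markers were called lower in treated cells at day 14, beside 14.4% of all miRNAs. These 7 also belong to the neuronal list above, so the 2 counts are not separate. The 2 members of that list called higher, miR-218-5p and miR-212-3p, and the 4 not called are all outside the 7. Their summed level was 1517% to 1780% in treated and 2439% to 2893% in control cells. Each sum given here adds signals of different probes, so bright members weigh most in it. Pluripotent cell markers, such as the miR-302 cluster, summed to 224% to 328% at day 5 and at day 14 to 24.6% to 34.1% in treated and 27.9% to 33.8% in control cells, and 0 of 6 tested were called at day 14. Glia markers summed to 225% to 296% in treated and 157% to 162% in control cells at day 14, with 1 of 2 tested higher and 1 lower. Most of that sum was miR-219-5p, the higher one, which averaged 1.32 log2 units in treated cells. The lower one, miR-338-3p, averaged -3.31 there. Mesenchyme and smooth muscle markers summed to 102% to 112% in treated and 59.5% to 64.0% in control cells, with 2 of 2 tested higher, though miR-143-3p, miR-145-5p and miR-214-3p were above background on 0 arrays. Most of that sum was miR-21-5p, at -0.089 log2 units in treated day 14 cells beside -3.66 for miR-199a-3p. Endoderm markers summed to 42.7% to 51.5% in treated and 10.2% to 10.8% in control cells, with 1 of 2 tested called higher, miR-375-3p. Only 2 of these 7 markers were above background on any array, with miR-122-5p on 0 arrays. The other tested one, miR-216a-5p, was above background on 0 arrays of either day 14 group. Of the 4 striated muscle markers and the 4 blood and endothelium markers found by name on the array, 0 were above background anywhere. The blood list also held miR-451a, which was not found under that name, and miR-451, which is on the array, was not looked up. The part of these markers in the differences of miR-598-3p and miR-551b-3p was not tested.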

How the data were processed

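The deposited scanner tables give spot signals as background-subtracted intensity (Cy3) not normalized between arrays, as written by Feature Extraction (version 11.0.1.1, per the file headers). Other columns used are flags of 0 or 1 (other) for spots above background, saturated or outlying, per the file headers. The deposited series matrix holds linear intensity per probe, not centred, with column medians of 0.032 to 0.774. There, treated day 14 replicates 1 and 2 share 1 set of values (86.0% of probes equal within 0.1%), and both were counted as 1 replicate where that matrix replaced the scanner tables. Version 3.20.9 of limma stands in the submitters' processing notes, with no role given.

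From the scanner tables, outlier spots were dropped and each probe's mean signal was set relative to the 75th percentile of its array. That percentile was taken over the 353 probes above background in all samples. Values under a floor of -4.27 (log2) were set to it, and log2 was taken. The brightest probe stood for a miRNA, and 306 miRNAs (above background throughout 1 or more groups) were fitted in limma 3.58.1 (R 4.3.3, jsonlite 2.0.0, and data.table in version 1.17.8) with all 5 groups, 10 residual and 3.06 prior degrees of freedom. Tests were two-sided, Benjamini-Hochberg adjusted over the 306 and called below 0.05. On simulated data (20 simulations, 306 miRNAs) 93.3% of changes of 0.6 log2 units at day 14 were recovered, and 3.86% of calls were unchanged miRNAs. Neither rate was worked out separately for miRNAs with groups at the floor, such as miR-598-3p and miR-551b-3p. Both rates describe the simulation only, and whether they hold for this pair was not tested. Where a group was below background, a fold was computed against the lowest scaled signal above background on each array, or the floor if higher. Sequences are RefSeq's. Figures used Python 3.11.15 and matplotlib 3.10.9 (pandas 2.3.3, numpy 2.4.6).

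The 2 miRNAs and all lists were chosen with earlier results of these data known. Named miRNAs are the pair, their 5p products, those of the same detection pattern, the 5 nearest each by Pearson's r and up to 6 called members of the neuronal list with the largest day 14 difference. Listing miR-129-1-3p under the pattern of miR-598-3p is outside that rule. Between same-numbered treated and control arrays, deviations from group means correlated at -0.24 to -0.06 at day 14 and -0.22 to 0.21 at day 9, so the numbers do not pair samples. Alternatives changed the scaling, background correction, floor, filter, probe summary, blocks, arrays in the fit and source table.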

Additional observations from a re-analysis of the deposited data

Results flagged for a closer look

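The interaction of treatment and day in limma asks whether the treated minus control difference changed between day 9 and day 14. For miR-598-3p it was called under the main processing, as it was for 32.7% of all 306 miRNAs. The day 14 difference minus the day 9 difference was -0.38 log2 units (SE 0.13, limma adjusted p = 0.031). Treated day 9 cells were below background, so the day 9 difference is a bound, and neither the size nor the direction of the change is settled. With a floor 4 times lower it was -0.16 (limma adjusted p = 0.53), and with the software's total signal it was 0.22, neither of them called. The call held in only 2 of the 12 fits that left out 1 array, those without treated day 14 replicate 2 and without control day 14 replicate 1, with adjusted p from 0.0040 to 0.076 over the 12. All treated day 9 arrays lie on another slide than the control day 9 arrays, so slide and treatment cannot be told apart at day 9.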

How the results depend on the processing

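Of the 20 alternatives for each day 14 difference, 18 kept the direction and the call for miR-598-3p and 13 for miR-551b-3p. For miR-598-3p the exceptions were a floor 4 times higher (-0.13) and the software's total signal (-0.87); the total signal was added after seeing the data. For miR-551b-3p they were the 75th percentile over all probes (-0.095), quantile normalization (-0.12) and normexp (-0.014), which reversed it, and median scaling (0.074), the higher floor (0), a floor 4 times lower (0.28) and total signal (0.051). Of the 20 alternatives, 6 left out 1 array, which gave -0.71 to -0.52 for miR-598-3p and 0.26 to 0.31 for miR-551b-3p. Both differences stay unchanged by construction with no filter, a filter on all day 14 arrays, a replicate block or only the compared groups. Those settings could change the call but not the direction. Under none of the other scalings nor normexp did miR-551b-3p keep its call. The 163 miRNAs called at day 14 became 70 with normexp, 93 with the higher floor and 107 with a slide block (145 to 165 leaving out 1 array). Of calls, 73.0% were higher in treated cells, but 32.5% with the percentile over all probes, 51.1% with quantile and 54.3% with median scaling. At day 9 the call of miR-598-3p was lost with normexp (-0.010), the higher floor (0), no filter (-0.23), the mean of the probes (-0.14), a slide block (-0.40) and each array left out (-0.24 to -0.22), while 5 other settings gave -1.09 to -0.44 and kept it, and 170 called miRNAs became 83 with normexp, 95 with the higher floor and 75 with the slide block (149 to 160 leaving out 1 array). The interaction of miR-598-3p lost its call with normexp (-0.34), the higher floor (-0.13), the lower floor (-0.16), no filter (-0.38) and a slide block (-0.33), turned with total signal (0.22) and ran from -0.48 to -0.29 leaving out 1 array; the 100 miRNAs called became 37 with normexp (81 to 110 leaving out 1 array), and the 51.0% of calls that were higher became 68.3% with the percentile over all probes. The log2 difference of miR-598-3p between day 14 and day 9 in treated cells (1.48, day 9 at the floor) became 1.30 with the percentile over all probes, 1.20 with quantile and with median scaling, 0.26 with normexp, 0 with the higher floor, 1.71 with the lower floor and 2.12 with total signal (1.41 to 1.54 leaving out 1 array). In control cells (1.87) it became 1.60 with quantile, 1.58 with median scaling, 0.60 with normexp and 0.13 with the higher floor (1.78 to 1.97). For miR-551b-3p the treated difference between these days (1.22) became 1.03, 0.95 and 0.93 with the percentile over all probes, quantile and median scaling, 0.20 with normexp, 0 and 2.32 with the higher and lower floor, 0.61 with the mean of the probes, 1.20 with the value table and 2.32 with total signal (1.21 to 1.22). That in control cells (0.94) became 1.01 with quantile, 0.82 with median scaling, 0.21 with normexp, 0 and 1.12 with the higher and lower floor, 0.47 with the mean of the probes and 1.56 with total signal (0.91 to 0.96). The higher floor lies above all signals of miR-551b-3p and all but 2 of miR-598-3p, and normexp adds an offset of 50 intensity units, more than miR-551b-3p itself reads; the cause of the other changes was not tested. With the replicate number as a block the values were -0.61 (limma adjusted p = 0.00012) and 0.28 (adjusted p = 0.0012), and the calls of miR-598-3p at day 9 and in the interaction also held. Normexp used the median spot signal in place of the mean, and a fit of only the compared groups was not run for differences between days, which it leaves unchanged. Signals of at most 60.3 intensity units and 3 arrays a group limit the precision.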
